A study of Rattus norvegicus with 4 samples.

Results

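High glucose was compared with normal glucose after 48 h in primary cardiomyocytes of newborn rats, across long non-coding RNA (lncRNA) transcripts. A transcript entered when its mean over the 4 libraries of the series was at least 1 FPKM (fragments per kilobase of transcript, scaled to the library total), with a transcript that a library did not list taken as 0 there. This kept 7321 of the 17934 listed transcripts, 40.8% of them. The cells came from Sprague-Dawley rats aged 1 to 2 days and were cultured in M199 medium with carnitine at 2 mM, creatine at 5 mM and taurine at 5 mM, which every group shared. Normal glucose meant 5 mmol/l glucose with 28 mmol/l mannitol, a sugar alcohol used as an osmotic control, and high glucose meant 33 mmol/l glucose. The labels say neither how many animals nor how many cultures stand behind a library. Each medium at each time, 24 h or 48 h, was 1 library, so the values below compare libraries, and no spread between replicates exists.

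High glucose is used on cultured heart muscle cells to imitate the diabetic heart, where surplus glucose is known to raise reactive oxygen species and to promote cell death. lncRNAs are RNAs of over 200 nt with no known protein product. Some act in the nucleus on nearby genes or on chromatin, others in the cytoplasm on mRNA or microRNA, and many are low in level and particular to a cell type. Most of the identifiers here come from NONCODE, a catalogue of non-coding transcripts, and their functions are not paired with them in the tables. A spliced transcript has exons joined over introns, while a single-block transcript is as long as the stretch of genome it covers and shows no intron. Muscle markers such as Myh6 and Tnnt2 are protein-coding and were not analysed here, so the labelled cell type was not checked.

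The lncRNA reads summed to 1075428 in normal and 904979 in high glucose at 48 h, out of library totals of 14855771 and 14225730 recovered from the FPKM values. The 24 h sums were 846946 for normal and 1069067 for high glucose. Levels are given as reads and as CPM, counts scaled by the library total, on which 1 read was worth 0.0673 CPM (normal) and 0.0703 CPM (high glucose) at 48 h. The median measured transcript had 36 reads in normal and 29 in high glucose. At those counts the ratio was 0.841 with a 95% counting interval of 0.498 to 1.41, so a 1.5-fold difference of a median transcript was not detectable at this depth. Intervals are exact and cover counting error only, as do floors, and without molecular identifiers, PCR copies of 1 molecule may be counted more than once. In such bulk RNA, fewer cells of a type and less RNA per cell cannot be told apart. A difference was counted when log2 (CPM + 1) differed by at least 1, called 2-fold here, and folds of single transcripts are ratios of CPM with no pseudocount.

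The 48 h comparison had 209 transcripts beyond 2-fold upwards in high glucose and 316 downwards. They were 2.85% and 4.32% of the measured transcripts, 7.17% together. At 24 h the shares had been 2.34% higher and 2.55% lower, 4.89% together. The middle 50% of the 48 h log2 ratios ran from -0.40 to 0.13 around a median of -0.14, against -0.22 to 0.15 around -0.04 at 24 h. The higher transcripts had a median log2 ratio of 1.67, with a median of 10 reads (normal) and 87 (high glucose). The lower ones had a median of -1.42, with medians of 76 reads (normal) and 11.5 (high glucose). Scaling sets the balance: rescaling by TMM factors, which centre the bulk of transcripts, gave 256 higher and 246 lower and moved the median to -0.01, so 51.0% of the 2-fold transcripts were higher in place of 39.8%.

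**Figure D1:**
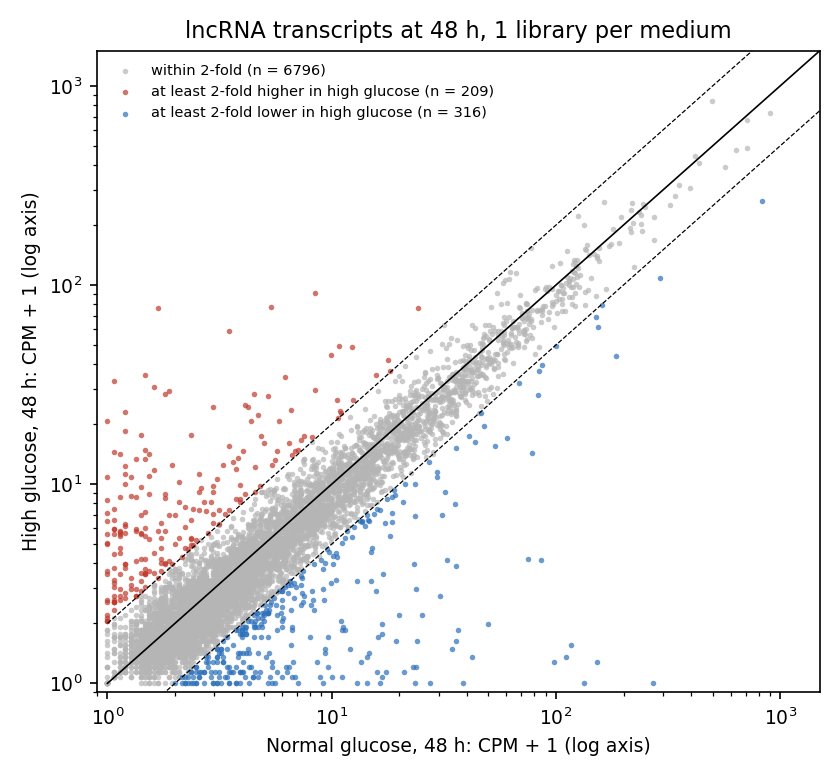
Level of each of the 7321 measured lncRNA transcripts at 48 h in normal glucose (x axis) and high glucose (y axis), as CPM + 1 on log axes, with 1 library per medium. The solid line marks equal levels and the dashed lines 2-fold; 316 blue points lie below the lower dashed line and 209 red points above the upper one.

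With library totals, small differences leaned to lower values as the large ones did, and with TMM factors they did not. The counting interval of the ratio lay wholly below 1 for 1646 transcripts (22.5%) and wholly above 1 for 697 (9.52%), with library totals. With TMM factors these counts were 1006 and 1106. Summed over measured transcripts, lncRNA reads at 48 h took 69355 CPM (normal) and 60954 CPM (high glucose), a difference of -8401 CPM. The 316 lower transcripts accounted for -4575 CPM and the 209 higher ones for 1884 CPM, a net of -2691 CPM. The 6796 transcripts within 2-fold held the other -5710 CPM, 68.0% of the difference, with a median log2 ratio of -0.13. The 316 lower transcripts held 8.57% of the measured lncRNA CPM in normal glucose and 2.25% in high glucose.

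Positions are as deposited, and the submitters' processing notes name rn6 as the build. The short spliced transcript NONRATT007996.2 (chr12:39957131-39959077, 217 nt, sharing its locus with another listed transcript) carried the largest loss of reads. It had 10114 and 11784 reads at 24 h (normal, then high glucose) and 12260 and 3725 reads at 48 h. The high glucose library at 48 h stood apart from the other 3. The transcript was 3.15-fold lower there than in normal glucose (95% counting interval 3.04 to 3.27), and its loss of 563 CPM was 6.71% of the whole difference. The 10 largest losses together came to 2178 CPM, 25.9% of it. NONRATT004188.2 (chr10:31237556-31240582, single-block, 3027 nt) had 1013 and 197 reads at 24 h (normal, then high glucose) and 4307 and 1530 at 48 h. Its level was thus lower in high glucose at both times, 6.78-fold (5.81 to 7.93) and then 2.70-fold (2.54 to 2.86), while it was higher at 48 h than at 24 h in both media.

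Among the transcripts at least 2-fold higher at 48 h, the 2 with the highest mean CPM over both 48 h libraries had a like order of levels, which other abundant ones such as NONRATT007078.2 and NONRATT021040.2 did not have. NONRATT024781.2 (chr6:6696170-6709782, spliced, 821 nt) had 1003 reads in normal and 115 in high glucose at 24 h, and 110 and 1284 at 48 h. NONRATT024332.2 (chr6:86785788-86812078, spliced, 4452 nt) had 781 and 312 reads at 24 h and 344 and 1080 at 48 h. Both were high in normal glucose at 24 h and in high glucose at 48 h, and low in the other 2 libraries. At 48 h NONRATT024781.2 was 12.2-fold higher in high glucose (10.0 to 14.9) and NONRATT024332.2 3.28-fold (2.90 to 3.71). At 24 h NONRATT024781.2 was 11.5-fold lower (9.47 to 14.1) and NONRATT024332.2 had a log2 ratio of -1.67.

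The largest log2 ratios of CPM + 1 at 48 h, up and down, belonged to NONRATT021040.2 and NONRATT004374.2. NONRATT021040.2 (chr4:180132182-180135931, single-block, 3750 nt) had 11 and 40 reads at 24 h (normal, then high glucose) and 10 and 1071 at 48 h. Its level in high glucose was 29.5-fold higher at 48 h than at 24 h (21.5 to 41.5), and its normal glucose libraries did not differ beyond counting error, at 1.38-fold lower (0.530 to 3.61). The spliced NONRATT004374.2 (chr10:48880225-48881896, 718 nt) had 280 reads in normal glucose at 24 h and 4006 at 48 h and was not listed in either high glucose library. The difference at 48 h was at least 1279-fold against a floor of 3 reads per library.

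Some transcripts were all but absent from one of the 48 h libraries. At least 50 reads in normal glucose and at most 3 in high glucose were found for 38 transcripts at 48 h, of which 13 were not listed in high glucose. The reverse held for 31, of which 8 were not listed in normal glucose. Of the 38, 14 had at least 50 reads in both 24 h libraries and 5 at most 3 in both. Of the 31, the same counts were 4 and 10. Spliced transcripts made up 22 of the 38 and 14 of the 31, where 54.7% of all measured transcripts were spliced. Another listed transcript lay at the locus of 18 of the 38 and 8 of the 31, where 34.5% of all measured transcripts shared a locus.

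By structure, both spliced and single-block transcripts leaned to lower values with library totals. Of 3314 single-block transcripts 78 were at least 2-fold higher and 123 lower, 6.07% in all, with a median log2 ratio of -0.16 and 67.7% below 0. Of 4007 spliced transcripts 131 were higher and 193 lower, 8.09%, with a median of -0.11 and 60.2% below 0. The shares of the 2-fold transcripts that were higher, 38.8% and 40.4%, lay near the 39.8% of all measured transcripts. Single-block transcripts also had more reads, a median of 51 in normal glucose at 48 h against 29 for spliced ones, and the part of depth in this was not tested. With TMM factors the medians were -0.02 and 0.00 and the counts 92 and 95 for single-block and 164 and 151 for spliced transcripts.

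Both structures held transcripts that nearly vanished from the high glucose library at 48 h. NONRATT002849.2 (chr1:146069775-146071454, 1680 nt) had 2049 reads in normal and 1604 in high glucose at 24 h, 2246 and 4 at 48 h. Only the last library was low, and the transcript was 538-fold lower there than in normal glucose at the same time (210 to 1975). Among spliced transcripts, NONRATT005474.2 (chr10:45563313-45579139, 1014 nt) had 831 and 1974 reads at 24 h and 1967 at 48 h in normal glucose, and none in the last library, which did not list it.

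By length, the transcripts beyond 2-fold leaned to lower in the middle class and not in the long class. Of 5002 transcripts from 500 to under 2000 nt, 114 were at least 2-fold higher and 235 lower, so 32.7% of the 2-fold transcripts were higher. Of 797 transcripts of 2000 nt or more, 44 were higher and 33 lower (57.1% higher). The median log2 ratio of this long class, -0.17, was nevertheless below that of all transcripts. In it 69.0% of the ratios were below 0, against 64.2% in the middle and 59.0% in the short class. Of 1522 transcripts under 500 nt, 51 were higher and 48 lower (51.5% higher), with a median of -0.09. With TMM factors the higher share of the 2-fold transcripts was 44.0% in the middle, 66.2% in the long and 63.9% in the short class. Under a pseudocount of 0.1 CPM, added after these counts were seen, the short class turned to 122 higher and 241 lower, whereas the long class stayed at 48 higher and 39 lower. At 24 h the long class had 30 higher and 32 lower and the middle class 113 and 131. Long transcripts had a median of 250 reads in normal glucose at 48 h, middle ones 38 and short ones 13. The pseudocount of 1 CPM shrinks the log2 ratios of low transcripts, so the order of the median log2 ratios by length is partly built in.

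The balance within each length class was also counted by structure. Of the long single-block transcripts 22 were higher and 17 lower, and of the long spliced ones 22 and 16. In the middle class the counts were 44 and 91 for single-block and 70 and 144 for spliced transcripts. In the short class they were 12 and 15 for single-block (44.4% higher) and 39 and 33 for spliced transcripts (54.2% higher). Of the short transcripts at least 2-fold higher, NONRATT008295.2 (chr13:67651544-67653146, spliced, 454 nt) had 49 and 57 reads at 24 h (normal, then high glucose) and 46 and 343 at 48 h, 7.79-fold higher in the last library (5.71 to 10.8). Of the short lower ones, NONRATT000073.2 (chr1:18980346-18986547, spliced, 394 nt) had 5 reads in each 24 h library, 273 and 9 at 48 h. Here the normal glucose library at 48 h stood alone, and the difference was 29.0-fold (15.1 to 64.2).

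**Figure D2:**
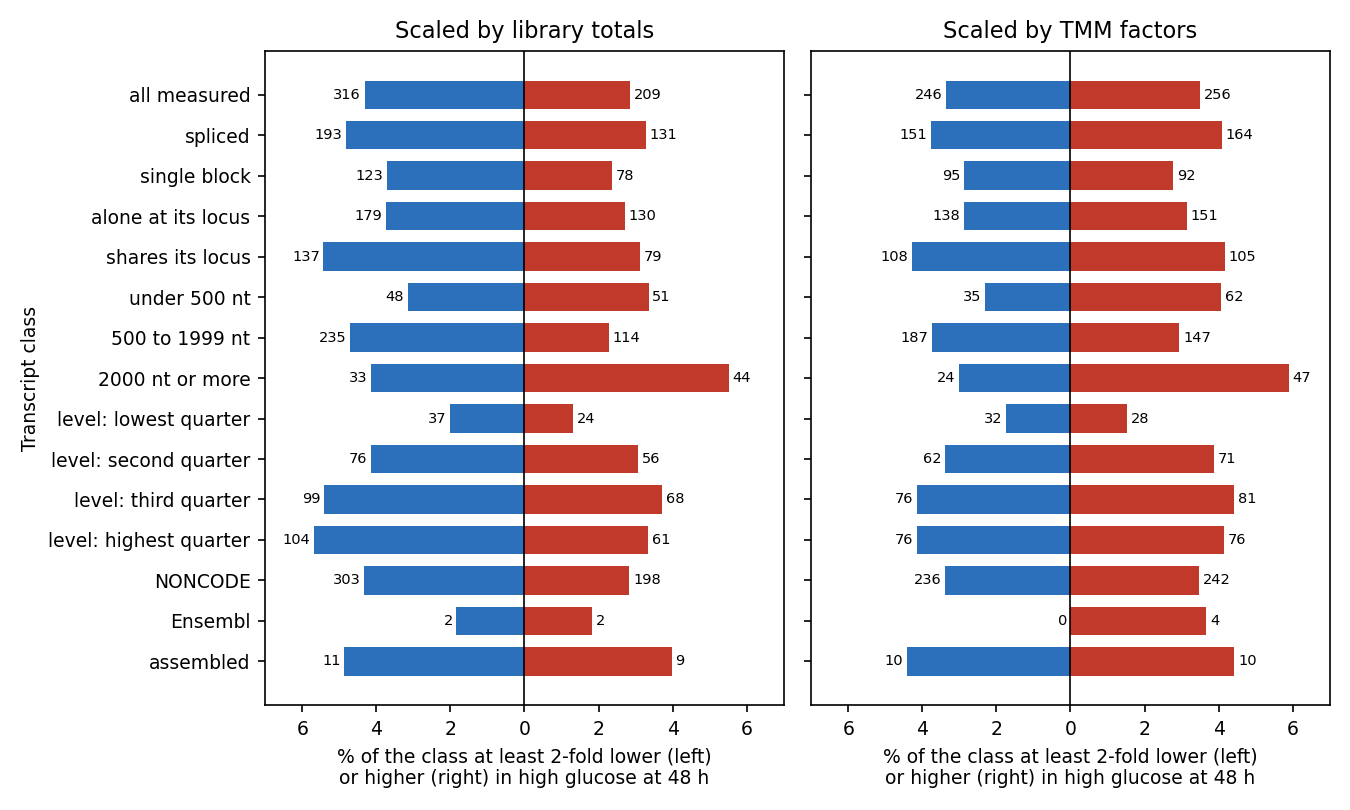
Share of each transcript class at least 2-fold lower (blue, left) or higher (red, right) in high glucose at 48 h, in % of the class, with the number of transcripts at each bar, scaled by library totals (left panel) or by TMM factors (right panel). The 2000 nt or more class has more higher than lower transcripts in both panels (44 and 33, then 47 and 24), and the middle class more lower (235 and 114, then 187 and 147).

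By source, the 109 Ensembl transcripts held 2 higher and 2 lower (3.67%), the 226 assembled transcripts 9 and 11 (8.85%) and the 6986 NONCODE transcripts 198 and 303 (7.17%). With 4 transcripts the Ensembl balance carries little, and it became 4 higher and 0 lower with TMM factors. ENSRNOT00000090050 (chr20:3403204-3403731, single-block, 528 nt) had 53 reads in high glucose at 24 h and 38 at 48 h and was not listed in normal glucose at either time. ENSRNOT00000088540 (chr3:124004419-124005426, spliced, 888 nt) had 1424, 1559 and 1476 reads at 24 h (normal, then high glucose) and normal glucose at 48 h, and 691 in high glucose at 48 h, 2.05-fold lower (1.87 to 2.24). Of the assembled transcripts, MSTRG.3899.3 (chr10:81829824-81839560, spliced, 2155 nt) had 80 and 43 reads at 24 h and 6 and 85 at 48 h. MSTRG.20130.1 (chr8:23084499-23090334, spliced, 1486 nt) had 38 and 33 reads at 24 h, 41 at 48 h in normal glucose, and none in the last library, which did not list it.

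By level, measured transcripts were cut into 4 groups of near equal size by mean CPM, and the share beyond 2-fold went from 3.33% in the lowest to 7.21%, 9.13% and 9.02% in the next ones. The pseudocount of 1 CPM holds back low transcripts, since the lowest group reached only 1.13 CPM, so this order is partly built in. The median log2 ratio went from -0.09 through -0.14 and -0.17 to -0.18 in the highest group, and all 4 lay between -0.02 and 0.00 with TMM factors. The pseudocount also shrinks the log2 ratios of low transcripts, so the order of these medians is partly built in as well. By chromosome, the median was below 0 on all 21 chromosomes with at least 100 measured transcripts, from -0.21 on chromosome 7 to -0.08 on chromosome 6. With library totals, more transcripts were lower than higher on 18 of them. Chromosomes 14 (10 higher, 5 lower) and 19 (12 and 9) had the reverse, and chromosome 9 had 10 of each. With TMM factors the median was below 0 on 10 of the 21, and the tally turned to 8 chromosomes with more lower and 12 with more higher transcripts.

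Most transcripts beyond 2-fold at 48 h had been within 2-fold at 24 h, as had most measured transcripts. Of the 525 transcripts beyond 2-fold at 48 h, 389 (74.1%) had been within 2-fold at 24 h, against 6963 of all 7321 measured transcripts. Among the lower ones 243 of 316 were new in this sense (76.9%), 40 had been at least 2-fold lower already and 33 at least 2-fold higher. Among the higher ones 146 of 209 were new (69.9%), 28 had been higher already and 35 lower. With TMM factors the new ones numbered 186 higher and 179 lower. Seen from 24 h, 222 of the 358 transcripts beyond 2-fold then were within 2-fold at 48 h. The other 136 were 38.0% of the 358, while 5.59% of the 6963 transcripts within 2-fold at 24 h were beyond it at 48 h, and no library entered both ratios. Of these 136, however, 68 had the opposite direction at 24 h and only as many the same direction.

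**Figure D3:**
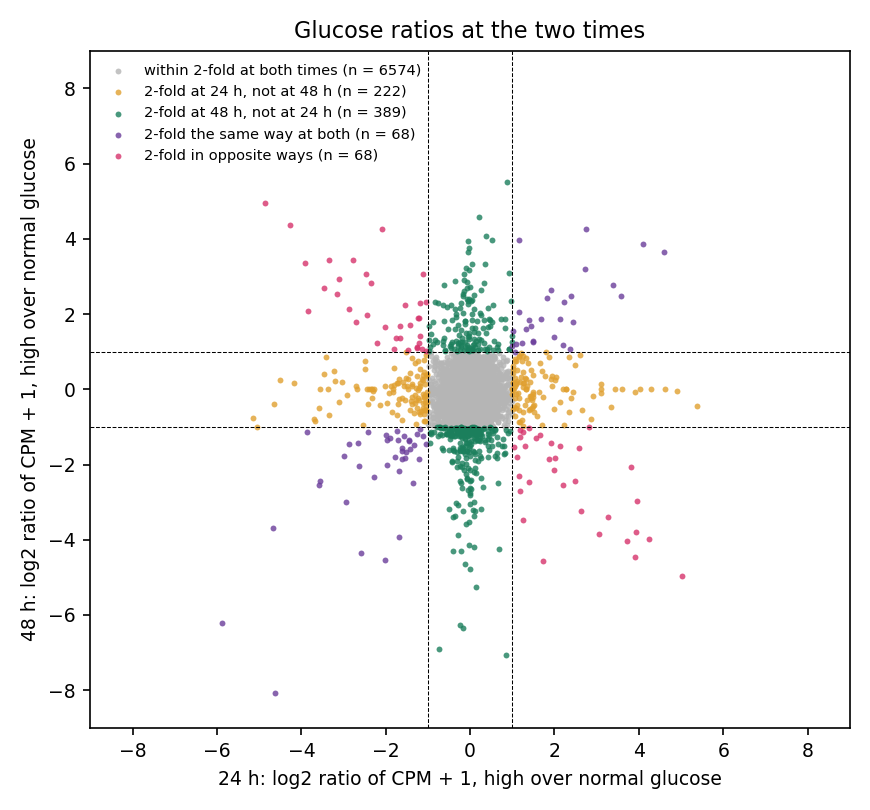
Log2 ratio of CPM + 1, high over normal glucose, at 24 h (x axis) and 48 h (y axis) for the 7321 measured transcripts, 1 library per medium and time, with dashed lines at 2-fold. The 389 green points along the vertical arm are the differences new at 48 h, against 68 purple points with the same direction at both times and 68 pink points with opposite directions.

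The new lower transcripts took several forms over time. Of the 243, 116 were at least 2-fold lower at 48 h than at 24 h in high glucose and within 2-fold in normal glucose. A further 34 moved up at least 2-fold over time in normal glucose alone, 3 moved in both media in opposite ways, 5 moved beyond 2-fold the same way in both, and 85 stayed within 2-fold in each medium. Their summed level was 3497, 3340 and 4139 CPM in normal and high glucose at 24 h and normal glucose at 48 h, and 1082 CPM in high glucose at 48 h. Over all measured transcripts, 4.34% were at least 2-fold lower and 2.57% higher at 48 h than at 24 h in high glucose, and 2.65% lower and 2.02% higher in normal glucose. These time ratios share the 48 h libraries with the glucose ratio and are given only to show which library differs.

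The new higher transcripts also took several forms over time. Of the 146, 69 were at least 2-fold higher at 48 h than at 24 h in high glucose alone and 35 at least 2-fold lower in normal glucose alone, while 3 moved the same way in both and 39 stayed within 2-fold in each. Their summed level was 596 and 602 CPM in normal and high glucose at 24 h and 259 and 1368 CPM at 48 h. By class, new differences made up 84.3% of the higher and 87.5% of the lower transcripts under 500 nt, and 54.5% and 66.7% of those of 2000 nt or more. Of all measured transcripts in these 2 classes, 3.42% and 7.78% were beyond 2-fold at 24 h. The median transcript had a mean level of 0.869 CPM in the short class and 16.2 CPM in the long one. The pseudocount of 1 CPM holds back low transcripts at 24 h too, so this contrast by length is partly built in. The shares of new differences were alike for spliced and single-block transcripts, at 69.5% and 70.5% of the higher and 77.2% and 76.4% of the lower ones. Of all measured spliced and single-block transcripts, 5.86% and 3.71% were beyond 2-fold at 24 h.

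Examples with near equal levels at 24 h show both forms. NONRATT017367.2 (chr20:28002028-28004766, single-block, 2739 nt) had 1447 reads in normal and 1700 in high glucose at 24 h, 1627 and 5 at 48 h. NONRATT024810.2 (chr6:11067659-11068300, single-block, 642 nt, sharing its locus) had 1117, 1241 and 1437 reads in the same 3 libraries and 4 in the last. Only the high glucose library at 48 h was low for either, 312-fold (133 to 961) and 344-fold (134 to 1264) below normal glucose. NONRATT014443.2 (chr19:9766439-9768724, single-block, 2286 nt) was the mirror image, with 39, 72 and 37 reads and then 822 in high glucose at 48 h, 23.2-fold higher (16.7 to 33.2). NONRATT009320.2 (chr14:36750784-36755360, spliced, 3702 nt) had 307 and 467 reads at 24 h, 7 and 486 at 48 h. Its ratio of 72.5-fold higher (34.9 to 181) came with a normal glucose level 54.9-fold lower at 48 h than at 24 h (26.3 to 138), while high glucose was 1.15-fold higher (1.01 to 1.30).

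Some differences were present at both times in the same direction. The 28 transcripts higher at both had a median log2 ratio of 1.86 at 24 h and 1.86 at 48 h, and the 40 lower at both -1.76 and -1.66, values that the choice of transcripts helps to set. Single transcripts could differ in size between the times, as NONRATT004188.2 did at 6.78-fold lower (5.81 to 7.93) and then 2.70-fold (2.54 to 2.86). NONRATT003063.2 (chr1:176940418-176942159, single-block, 1742 nt) had 1054 and 8 reads at 24 h and 1710 and 8 at 48 h. NONRATT007078.2 (chr11:71547851-71550895, single-block, 3045 nt) had 59 and 1578 reads at 24 h and 65 and 1093 at 48 h. NONRATT009135.2 (chr13:111574581-111576875, single-block, 2295 nt) had 1 and 398 reads at 24 h and 2 and 187 at 48 h. In each of these, both libraries of one medium lay apart from both of the other. Of the 28, 20 were alone at their locus, and of the 40, 28, shares near the 65.5% of all measured transcripts.

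Most transcripts with opposite directions paired the normal glucose library of one time with the high glucose library of the other. NONRATT000490.2 (chr1:82230930-82234051, single-block, 3122 nt) had 490 and 7 reads at 24 h (normal, then high glucose) and 1 and 456 at 48 h. NONRATT026818.2 (chr7:70351820-70355576, spliced, 2342 nt) was not listed in normal glucose at 24 h, and had 281 reads in high glucose at 24 h, 235 and 1 at 48 h. NONRATT030593.2 (chrX:71552333-71555281, spliced, 2886 nt) had 1, 537, 610 and 5 reads in the same order. Among the 33 with a lower value at 48 h after a higher one at 24 h, 29 moved beyond 2-fold in both media. These 29 moved down over time in high glucose and up in normal glucose, and 23 of the 35 with the reverse order showed the mirror pattern. In the rest, either normal or high glucose alone moved by 2-fold or more over time. The choice of transcripts largely sets these counts, since opposite glucose ratios force the time ratios of the media apart. Of the 33, 20 shared a locus with another listed transcript (60.6%), against 43.2% of the 243 new lower transcripts and 12 of the 40 lower at both times. On the higher side it was 16 of 35 (45.7%) against 37.7% of the 146 new higher transcripts, and over all measured transcripts 34.5%.

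**Figure D4:**
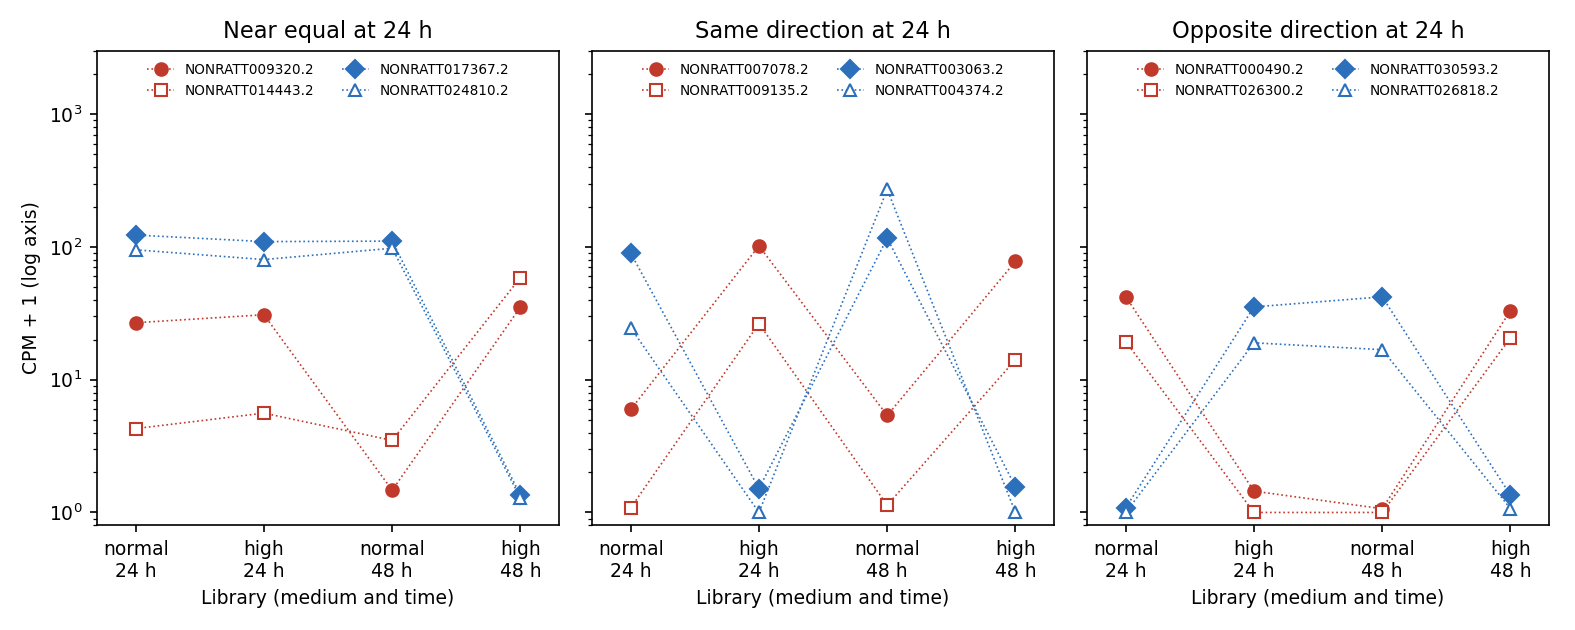
Level of named transcripts in each of the 4 libraries, as CPM + 1 on a log axis, with dotted lines to guide the eye. Those near equal at 24 h (left) had the largest 48 h ratios of their kind. Those in the same direction at 24 h (middle) and in the opposite direction at 24 h (right) were ranked by the smaller of their ratios at both times. Red marks transcripts higher and blue those lower in high glucose at 48 h; NONRATT017367.2 has 122, 109 and 109.5 CPM in 3 libraries and 0.351 CPM in the last.

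At some loci, overlapping transcripts differed in opposite directions. A locus here is a chain of listed transcripts in which neighbours share at least 1 base, and the 7321 measured transcripts lay at 6201 loci. The 525 transcripts beyond 2-fold lay at 497 loci, of which 24 held several of them, and at 17 of these 24 one transcript was at least 2-fold higher and another at least 2-fold lower. Summed over all listed transcripts, 13 of the 17 loci were within 2-fold, with a median log2 ratio of -0.13. Over all loci, 2.56% of the sums were at least 2-fold higher and 4.03% lower, 159 and 250 of 6201. Of the 216 transcripts beyond 2-fold that shared a locus, 115 (53.2%) lay at a locus whose sum was within 2-fold, 48 of the 79 higher and 67 of the 137 lower ones. The sources used here do not say how the counting divided reads among overlapping transcripts, or whether it used strand, so these differences are uncertain for single transcripts. Besides those at the loci below, this holds for NONRATT007996.2, NONRATT024810.2, NONRATT026818.2, NONRATT030593.2, ENSRNOT00000090050, MSTRG.3899.3 and MSTRG.20130.1, named above. Each of them shared its locus with another listed transcript.

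The locus on chromosome 6 from 86785788 to 86812078, picked after its values were seen, shows the exchange at high counts. NONRATT024331.2 (3645 nt) had 166 and 840 reads at 24 h (normal, then high glucose) and 888 and 227 at 48 h, while NONRATT024332.2 (4452 nt), which starts at the same base, had 781, 312, 344 and 1080. The 6 listed transcripts of the locus summed to 1162 and 1440 reads at 24 h and 1538 and 1577 at 48 h. With library totals this was a ratio at 48 h of 1.07 (1.00 to 1.15). TMM factors raise every ratio of high over normal glucose at 48 h, and the intervals do not cover the choice of scaling. At the locus on chromosome 7 from 142238760 to 142244141, NONRATT026298.2 had 375, 542 and 555 reads and none in the last library, which did not list it. NONRATT026300.2 had 218 reads in normal glucose at 24 h and 280 in high glucose at 48 h and was not listed in the other 2 libraries. The 6 transcripts there summed to 1469 reads in normal and 984 in high glucose at 48 h, a ratio of 0.700 (0.645 to 0.759).

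Other loci differed as a whole. On chromosome 10 from 45562347 to 45579147 where NONRATT005474.2 lies, the locus had 2289 and 539 reads at 48 h, a ratio of 0.246 (0.223 to 0.270), although NONRATT005475.2 within it was 2.34-fold higher (1.99 to 2.76). On chromosome X from 15471029 to 15472740 the sums were 57 and 153 reads, a ratio of 2.80 (2.06 to 3.87). There NONRATT030883.2 had 21, 18, 23 and 145 reads at 24 h (normal, then high glucose) and then at 48 h, and NONRATT030884.2 had 7, 15, 31 and 7. On chromosome 6 from 6696170 to 6709782 NONRATT024781.2 overlaps NONRATT024782.2, with 12 and 454 reads at 24 h and 518 and 9 at 48 h. Each of the pair took the libraries where the other was low, and their sum was 2.15 times as high in high glucose at 48 h (1.95 to 2.37).

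**Figure D5:**
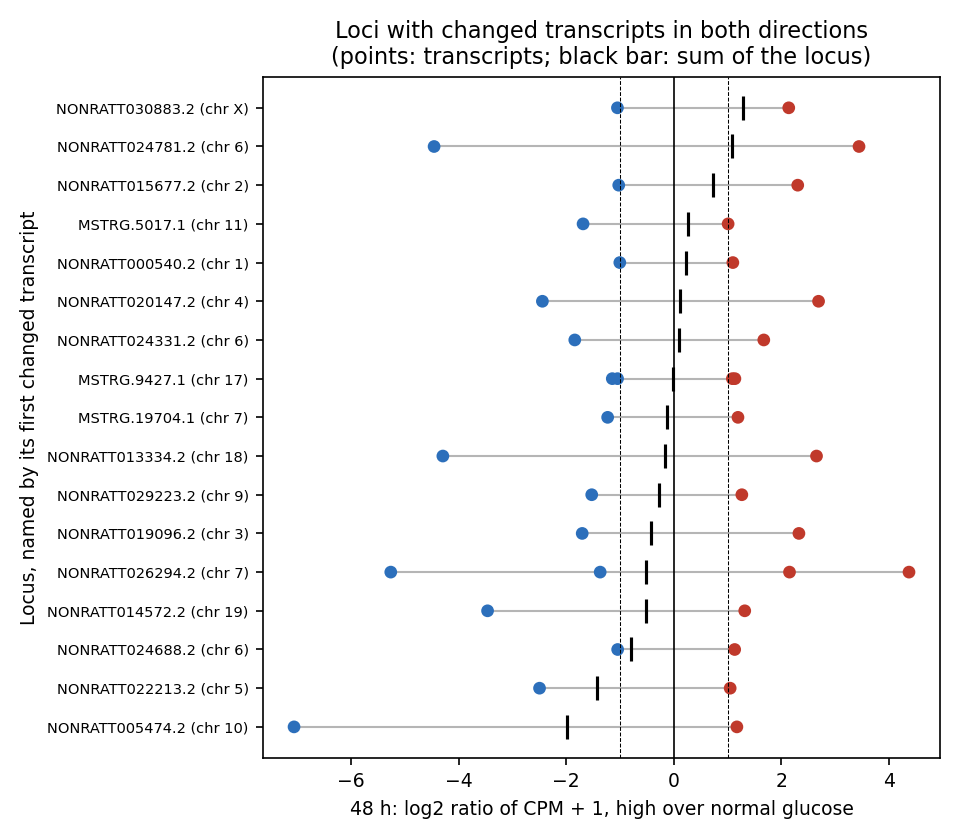
Log2 ratio of CPM + 1 at 48 h, high over normal glucose, for the 17 loci (y axis) with transcripts at least 2-fold higher (red points) and lower (blue points), joined by a grey line, and for the summed counts of each locus (black bar). In 13 loci the black bar lies between the dashed lines at 2-fold.

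The 2-fold limit cuts through a continuous range. Between 2.0- and 2.1-fold lay 61 transcripts, and between 1.9- and 2.0-fold 70 that were not counted. Just inside on the lower side, NONRATT011665.2 (chr16:81647411-81648137, single-block, 727 nt) had 159 and 69 reads at 48 h, and just outside NONRATT003285.2 (chr1:205955938-205956458, single-block, 521 nt) had 115 and 48. On the higher side, NONRATT027982.2 (chr8:111107606-111115571, spliced, 523 nt) had 53 and 116 reads and was just inside. ENSRNOT00000075924 (chr20:47253664-47263390, spliced, 932 nt) had 454 and 883 and was just outside. Without the pseudocount, both transcripts just outside were past 2-fold. NONRATT003285.2 was 2.29-fold lower (1.62 to 3.28) and ENSRNOT00000075924 2.03-fold higher (1.81 to 2.28).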

How the data were processed

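Each group was 1 Illumina library, prepared with the TruSeq Stranded Total RNA kit per the labels' protocols. The submitters' processing notes list TopHat2 2.1.0 and Cufflinks, and as builds Rnor_6.0 and rn6, without saying what each was used for. The sources used here name no counting tool and no strand setting. Raw read counts per lncRNA transcript, with at least 1 read, and FPKM values were deposited, per the file headers. Transcript length (7281 of the measured transcripts) and position were deposited too, and 40 lengths and the library totals were recovered from count and FPKM. No identifier matched the RefSeq gene table, so no gene names, annotations or sequences are given.

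Tables were joined on identifier in pandas 2.3.3. Ratios used log2 (CPM + 1) and a 2-fold rule. Exact conditional (Clopper-Pearson) 95% intervals came from scipy 1.17.1. They were tried on counts simulated with counting error only, the case they assume. This checked the computation and cannot show how they hold for real libraries. With 1 library per group no test was run and no p-value is given. A fold against 0 reads is a bound against 3 reads in that library. edgeR 4.0.16 gave TMM factors and DESeq2 1.42.0 size factors. At most 2 transcripts per direction were named per grouping, by largest ratio, smaller of both times' ratios, or CPM; those at loci with opposite directions were chosen after their values were seen. The groupings, classes and rules were chosen with earlier results of these data known.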

Additional observations from a re-analysis of the deposited data

Results flagged for a closer look

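Among the named transcripts, 15 differed by 2-fold or more in opposite directions at 24 h and 48 h. Over all 7321 measured transcripts 68 did, and some transcripts were named for this pattern, so the 15 do not show how common it was. With 1 library per medium and time, the difference between times was not tested. The log2 ratios of CPM + 1, high over normal glucose, at 48 h and then 24 h were 4.95 and -4.87 for NONRATT000490.2, 4.37 and -4.27 for NONRATT026300.2, and 3.45 and -2.79 for NONRATT004626.2. They were 4.26 and -2.10 for NONRATT022574.2, 3.44 and -3.36 for NONRATT024781.2, 1.67 and -1.67 for NONRATT024332.2 and 2.31 and -1.05 for MSTRG.3899.3. Lower at 48 h and higher at 24 h were NONRATT030593.2 (-4.96 and 5.03), NONRATT026818.2 (-3.97 and 4.24), NONRATT003363.2 (-3.84 and 3.05), NONRATT024782.2 (-4.46 and 3.90) and NONRATT014572.2 (-3.46 and 1.26). So were NONRATT024331.2 (-1.84 and 1.87), NONRATT029223.2 (-1.53 and 1.04) and NONRATT015677.2 (-1.02 and 1.40).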

How the results depend on the processing

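The balance at 48 h rested on the scaling: the median log2 ratio of -0.14 became -0.0081 with TMM factors, -0.0035 with size factors and -0.016 when the lncRNA sums were made equal, with 256, 261 and 252 higher and 246, 246 and 247 lower. Ensembl transcripts then numbered 4 higher and 0 lower under all 3. With a pseudocount of 0.1 CPM the counts were 405 higher and 826 lower, and with 5 CPM 71 and 95. With a mean of at least 5 FPKM they were 76 and 130, with a 1.5-fold threshold 460 and 978, and with a 4-fold one 75 and 84. Under the pseudocounts of 0.1 and 5 CPM the middle length class had 235 and 44 higher and 546 and 67 lower, and the short class 122 and 2 higher and 241 and 8 lower. The long class had 25 higher and 20 lower with 5 CPM. With a 1.5-fold limit at 24 h, 53 higher and 50 lower transcripts had been opposite. No paired analysis was possible because each group holds 1 library. At the reads of the median transcript, the ratio of 0.841 had a counting interval of 0.498 to 1.41, which held 1.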
